A study of Mus musculus with 6 samples.

Results

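A set of 42 mitosis and spindle genes was followed in leukemia stem cells (LSCs) of mice with and without Piezo1. The 42 were taken by symbol from a list of mitotic cyclins and kinases, spindle checkpoint, kinetochore and kinesin genes, activators of the anaphase-promoting complex and their partners, out of 55367 genes listed in the deposited expression table. All 42 were found there, all had values, and all were among the 16746 genes tested. The RNA came from 3 libraries labelled WT and 3 labelled Piezo1cko, made from LSCs of the bone marrow of mice with acute myeloid leukemia (AML). Per the study's methods, Piezo1cko donors were Mx1-cre; Piezo1fl/fl mice and the WT donors were Piezo1fl/fl littermates without the Cre, both groups 8 to 10 weeks old and treated with pIpC, which switches on the interferon-driven Mx1 promoter of the Cre. Lineage-negative marrow cells of both were infected with a retrovirus that carries MLL-AF9 and YFP and were transplanted into irradiated recipients, so both groups carry the floxed alleles, the oncogene and the same induction. The sources do not say which round of transplantation the sequenced cells came from, or whether the libraries of a group came from separate mice, so p-values measure the spread between these libraries, which may be technical.

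Mitosis is driven by CDK1 bound to cyclin B. The kinases of the Polo and Aurora families then help to build a spindle, kinesin motors and crosslinkers shape it, and kinetochores tie each chromosome to its microtubules. The spindle checkpoint holds back the anaphase-promoting complex (APC/C) until all kinetochores are attached. The APC/C then marks securin and cyclin B for destruction, which frees separase to cut cohesin. Most of these genes are transcribed late in the cell cycle, in G2 and M phase, through promoters that carry a CHR element or CCAAT boxes, and their mRNA is therefore a common readout of cycling cells.

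The deposited values are log2 values with the form of a regularized log, which pulls each library towards the gene's mean. They were tested as they are, and the read counts behind them were also recovered. Reads on genes ran from 14112122 to 15483613 per library. Squared differences between libraries of 1 group were 1.53 to 2.66 times those that read sampling alone gives (chi-square per degree of freedom). So no 2 libraries were the same library deposited again, but the spread within groups was small. Below, "normalized reads" are recovered reads divided by each library's size factor. Each log2 fold change is Piezo1cko minus WT and, unless said to be of recovered reads, is on the deposited scale, where it is smaller than that of the reads. Adjusted p-values are from limma with Benjamini-Hochberg adjustment over all genes tested.

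Piezo1 itself (chromosome 8 of GRCm38, 122481698 to 122551329), which encodes the mechanosensitive channel deleted here, had 101, 92.8 and 109 normalized reads in WT libraries and 36.6, 56.5 and 45.8 in Piezo1cko libraries. Every Piezo1cko library lay below every WT library, at 45.9% of the WT mean, with a log2 fold change of -0.29 (SE 0.04, adjusted p = 5.80e-06) and of -1.13 (SE 0.17) in recovered reads. The counts cover the whole gene, including exons that the Cre leaves in place. Markers of the sort gate (c-Kit, CD34 and CD16/32) were abundant. Of the 6 genes listed with the gate, 5 had a mean above 10 CPM (reads scaled to the library total). The list also holds Ptprc, which encodes CD45, a marker that the study's LSC gate does not name. Ly6a, which encodes the excluded Sca-1, had at most 16.6 normalized reads in any library. Most gate genes also differed between the groups: Fcgr2b, which encodes CD32, was at 48.1% of WT (adjusted p = 1.29e-13), Cd34 at 156% (adjusted p = 8.32e-12) and Kit at 136% (adjusted p = 8.42e-09). Ly6a rose from a mean of 0.660 to 11.4 normalized reads (adjusted p = 0.000535). Ptprc, which is not in the gate, was at 116% of WT (adjusted p = 9.36e-05). Fcgr3, which encodes CD16, did not pass the test, at 98.5% of WT (adjusted p = 0.574). Marker lists of other cells also moved with the group. The summed level of the 8 mature neutrophil markers was 166 to 167 CPM in WT and 19.5 to 21.4 CPM in Piezo1cko libraries, with Ly6g and Retnlg at no more than 3 reads in every library and 2 of 8 above 10 CPM. That of the 6 mast cell and basophil markers was 282 to 297 CPM and 827 to 834 CPM, with 4 of 6 above 10 CPM. The 6 B cell markers summed to 816 to 844 CPM and 1517 to 1541 CPM, mostly from Ighm, with Ms4a1 and Pax5 at no more than 3 reads in every library. The 8 T and NK cell markers summed to 268 to 281 CPM and 167 to 170 CPM, nearly all from Nkg7, with Cd3e, Cd4 and Cd8a at no more than 3 reads. The 7 macrophage and monocyte markers gave 563 to 591 CPM and 604 to 631 CPM, and none of the 8 erythroid markers reached 10 CPM. The part of these differences in the results below was not tested.

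Of the 42 mitosis and spindle genes, 24 were lower in Piezo1cko LSCs (57.1%), 8 were higher (19.0%) and 10 did not pass the test. Over all genes tested, 31.4% were lower and 31.6% were higher (63.0% in either direction), so that the share of lower calls among the 42 stood above the background and the share of higher calls below it. The same counts, 24 lower and 8 higher, came from the recovered reads, where the background was again 31.4% and 31.6% (62.9% in either direction). The differences were small. The median log2 fold change of the 42 was -0.10, against 0.00 for all genes tested, and -0.16 in recovered reads, with a range from -0.98 for Kif4 to 0.61 for Foxm1. No member passed the study's thresholds for a differentially expressed gene, an adjusted p below 0.05 together with a log2 fold change beyond 1 in either direction. This held by limma on deposited values (background 0.561% lower and 0.257% higher) and by limma-voom on recovered reads (background 12.2% lower and 12.7% higher). The study applied its thresholds to DESeq2 results, and that test was not run here. In either fit, 35 members had an unadjusted p under 0.05. The share of all genes under that unadjusted threshold was not computed, so this count is not a result about the members. Every Piezo1cko library lay below every WT library for 24 members and above for 9, and the groups overlapped for 9. Over all genes tested, the groups did not overlap for 66.6%, with 33.1% below and 33.5% above. In bulk RNA, fewer cells in mitosis and less mRNA per cell cannot be told apart. Without WT replicate 2, 5 members were called higher in place of 8, and the calls of Cdca8, Cenpa, Cenpe, Kif23, Nusap1, Smc2 and Smc4 were each lost in at least 1 of the 15 alternatives tried.

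**Figure D1:**
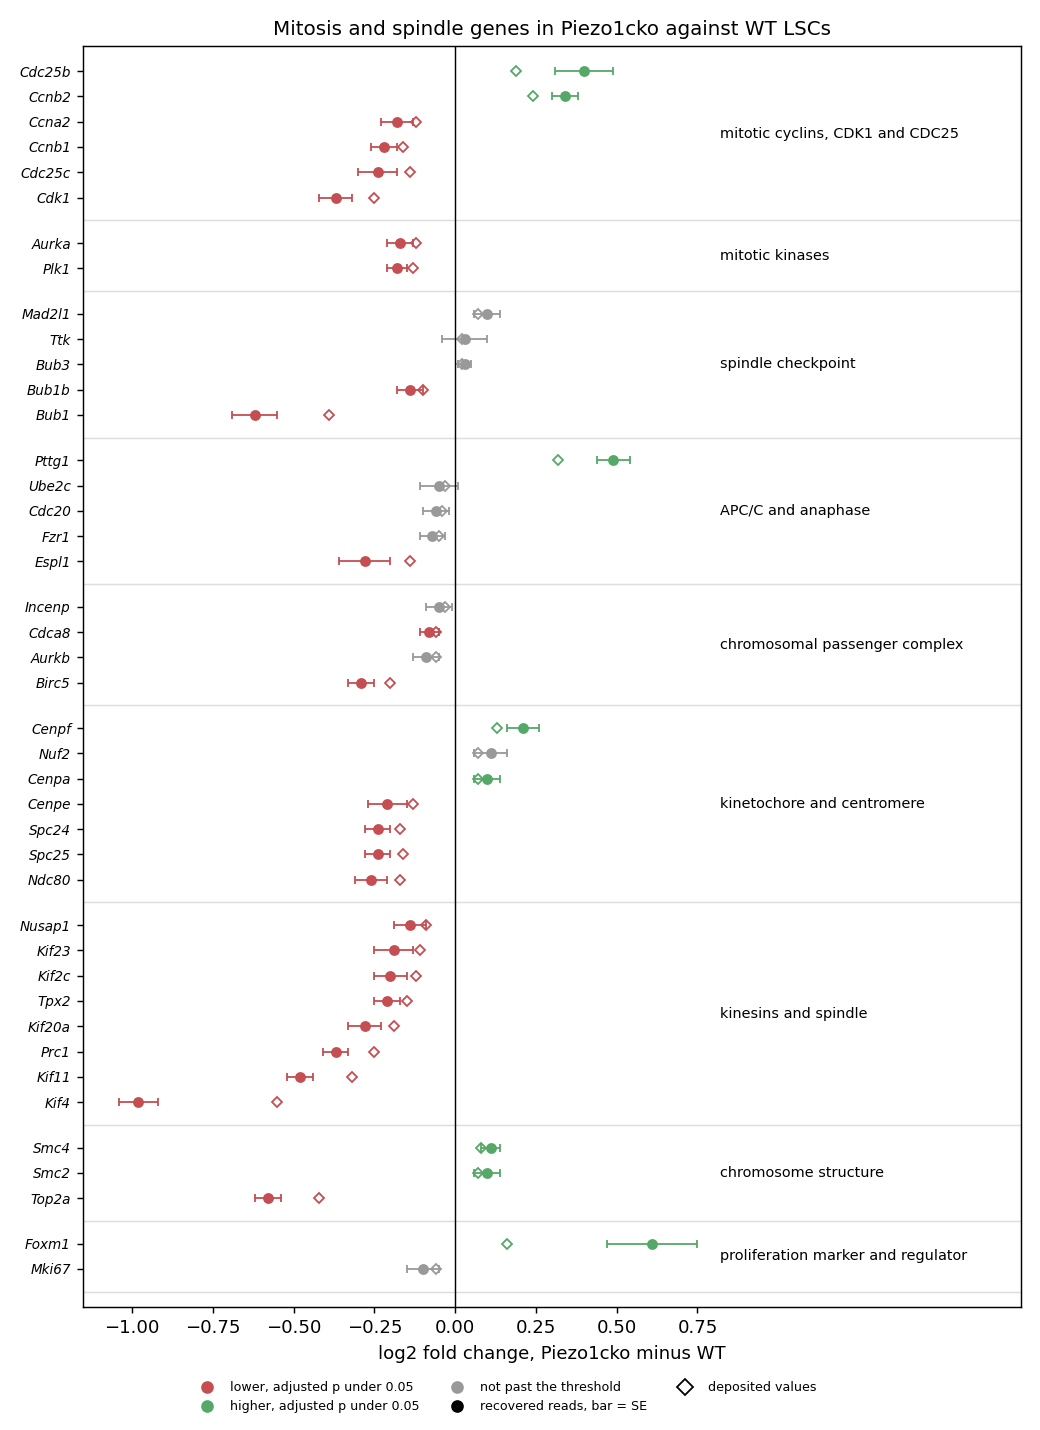
Log2 fold change (Piezo1cko minus WT, 3 libraries each) of the 42 members, grouped by role. Filled points are recovered reads with bars of 1 standard error, open diamonds are the deposited values, and colour gives the call on the deposited values. All 8 kinesin and spindle genes lie left of 0, from -0.98 to -0.14 in recovered reads, and Pttg1 and Foxm1 lie farthest to the right, at 0.49 and 0.61.

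The shared promoter elements of these genes can be seen in their sequences. RefSeq start windows (GRCm38.p6, 250 bases before to 50 after each start) were at hand for 33 of the 42 members. A CHR, searched as TTTGAA or TTCGAA on either strand, was found in 25 of the 33 (75.8%), against 21.7% of the 27025 genes with such windows. A CCAAT box, searched as CCAAT on either strand, was found in 26 of the 33 (78.8%), against 41.1% of genes, and both motifs in 23 (69.7%), against 8.61%. In the members, 1 CHR match shared letters with a CCAAT match. The windows of the 5 members with the largest absolute log2 fold changes that hold a CHR are shown from 120 bases before to 30 after the start, followed by that of Ccnb2, which was added after its values were seen because its mRNA moved the other way. Capitals mark the CHR and CCAAT letters, read on the gene's strand, where TTCAAA and ATTGG are the reverse forms.
Kif4 (chrX:100625945-100626094, plus strand): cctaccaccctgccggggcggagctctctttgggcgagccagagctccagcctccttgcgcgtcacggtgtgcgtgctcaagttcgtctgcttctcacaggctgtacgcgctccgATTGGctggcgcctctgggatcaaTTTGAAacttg
Top2a (chr11:99024160-99024309, minus strand): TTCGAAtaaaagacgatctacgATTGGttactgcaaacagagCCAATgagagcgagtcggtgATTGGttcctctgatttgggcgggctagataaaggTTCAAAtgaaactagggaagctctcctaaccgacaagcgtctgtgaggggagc
Bub1 (chr2:127831830-127831979, minus strand): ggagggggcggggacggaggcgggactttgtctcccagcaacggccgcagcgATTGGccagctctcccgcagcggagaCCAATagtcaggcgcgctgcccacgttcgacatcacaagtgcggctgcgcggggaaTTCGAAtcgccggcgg
Kif11 (chr19:37376262-37376411, plus strand): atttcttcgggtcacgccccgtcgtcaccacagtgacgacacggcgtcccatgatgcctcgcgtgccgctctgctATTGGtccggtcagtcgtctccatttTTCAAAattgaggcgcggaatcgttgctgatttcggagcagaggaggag
Cdk1 (chr10:69352883-69353032, minus strand): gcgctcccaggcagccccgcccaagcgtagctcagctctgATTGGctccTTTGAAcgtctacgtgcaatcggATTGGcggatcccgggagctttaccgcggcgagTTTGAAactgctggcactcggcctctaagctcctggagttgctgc
Ccnb2 (chr9:70421525-70421674, minus strand): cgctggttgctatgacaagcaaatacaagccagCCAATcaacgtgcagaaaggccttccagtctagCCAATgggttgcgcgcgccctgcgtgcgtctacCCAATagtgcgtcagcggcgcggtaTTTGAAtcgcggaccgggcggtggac
The first 5 genes fell in Piezo1cko LSCs and Ccnb2 rose, and all 6 windows hold a CHR and at least 1 CCAAT. Counted from 1 at the first transcribed base, the CHR nearest the start begins at base 20 in Kif4, 15 in Bub1 and 5 in Ccnb2. The Kif4 window lies inside the annotated span of Pdzd11, which runs on the opposite strand (chromosome X, 100622883 to 100626568). Kif11 has it 19 bases before the start and Cdk1 at 15 and 71 bases before. In 21 members the CHR nearest the start began within 40 bases of it. By call, 15 of 19 lower members with a window held a CHR, 5 of 6 higher ones, and 5 of 8 that did not pass the test. Among the members without a CHR in the window were Pttg1, which rose, and Birc5 and Ccnb1, which fell. A match is only a description of the letters, and its absence says only that they are not in this window.

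**Figure D2:**
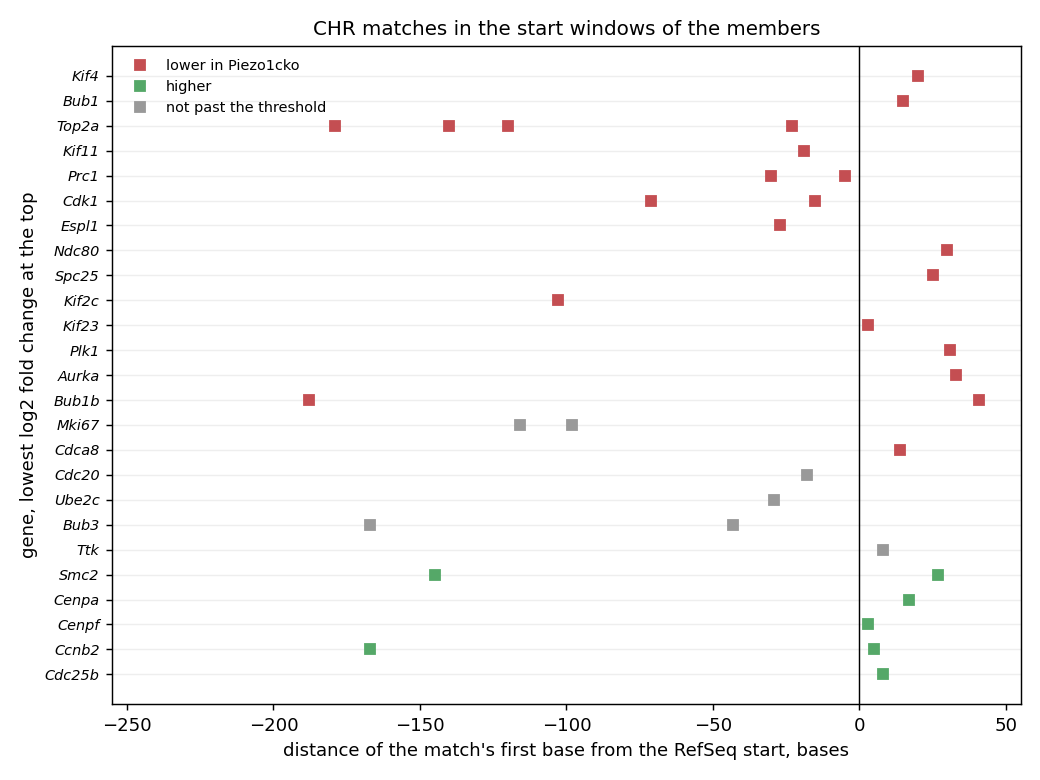
Distance in bases from the RefSeq start to the first base of each CHR match, for the 25 members that hold one within 250 bases before and 50 after the start. Genes are ordered by log2 fold change in recovered reads and coloured by call. Most genes have a match within 40 bases of the start, and Bub3, Mki67 and Kif2c are among those with matches farther upstream.

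All 8 kinesin and spindle genes were lower in Piezo1cko LSCs (8 of 8, against the background of 31.4%), and their summed normalized reads went from 10347 ± 71.6 (SD, n = 3) in WT to 8365 ± 238 (SD, n = 3), 80.8% of WT. Under median centring of the libraries the calls of Kif23 and Nusap1 were lost, and 6 of the 8 remained lower.

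Kif4 (chromosome X, 100625737 to 100727214), a chromosome-bound kinesin that also works at the central spindle, had 608, 565 and 590 normalized reads in WT libraries and 295, 298 and 303 in Piezo1cko libraries. Each Piezo1cko library held about the same level, and the mean was 50.8% of WT. Its log2 fold change was -0.55 (SE 0.03, adjusted p = 1.51e-10), and -0.98 (SE 0.06) in recovered reads, the most negative of the 42 on both scales. The gene shares 15.1% of its exon bases with Pdzd11 on the opposite strand, and Smart-seq2 libraries do not keep the strand, so reads of that stretch could not be told apart. Pdzd11 was at 86.0% of WT, a log2 fold change of -0.13 (adjusted p = 0.00558). As Kif4 is X-linked, the sex of the cells was looked at: Xist had at most 1 read in any library and the Y-linked Ddx3y was at 2067 ± 87.4 and 2071 ± 110 normalized reads in the 2 groups, so they did not separate by sex.

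Kif11 (chromosome 19, 37376403 to 37421859), the motor that pushes the spindle poles apart, went from 1548, 1557 and 1534 normalized reads to 1138, 1103 and 1085. The groups were far apart, with a log2 fold change of -0.32 (SE 0.03, adjusted p = 2.46e-08) and 71.7% of the WT level. Prc1 (chromosome 7, 80294450 to 80316259), which bundles the antiparallel microtubules of the central spindle and recruits KIF4 there, had 1688, 1655 and 1680 normalized reads in WT and 1356, 1276 and 1270 in Piezo1cko libraries. It fell by 0.25 on the log2 scale (SE 0.03, adjusted p = 9.55e-07), to 77.7% of WT. Kif20a, the kinesin that carries the chromosomal passenger complex to the central spindle, had 1508, 1658 and 1585 reads against 1365, 1247 and 1293. The groups did not overlap (log2 fold change -0.19, SE 0.03, adjusted p = 6.83e-05), but 29.3% of its exon bases are shared with Cdc23 on the other strand, which was itself at 89.7% of WT.

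The other 4 genes of the group changed less. Tpx2, which activates Aurora A and nucleates spindle microtubules, fell by 0.15 on the log2 scale (adjusted p = 0.000265), Kif2c, a microtubule-depolymerizing kinesin at centromeres, by 0.12 (adjusted p = 0.00370), Kif23, the kinesin of centralspindlin, by 0.11 (adjusted p = 0.0156), and Nusap1, a microtubule-binding protein, by 0.09 (adjusted p = 0.0270). In Nusap1 alone of the 8 the groups overlapped.

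**Figure D3:**
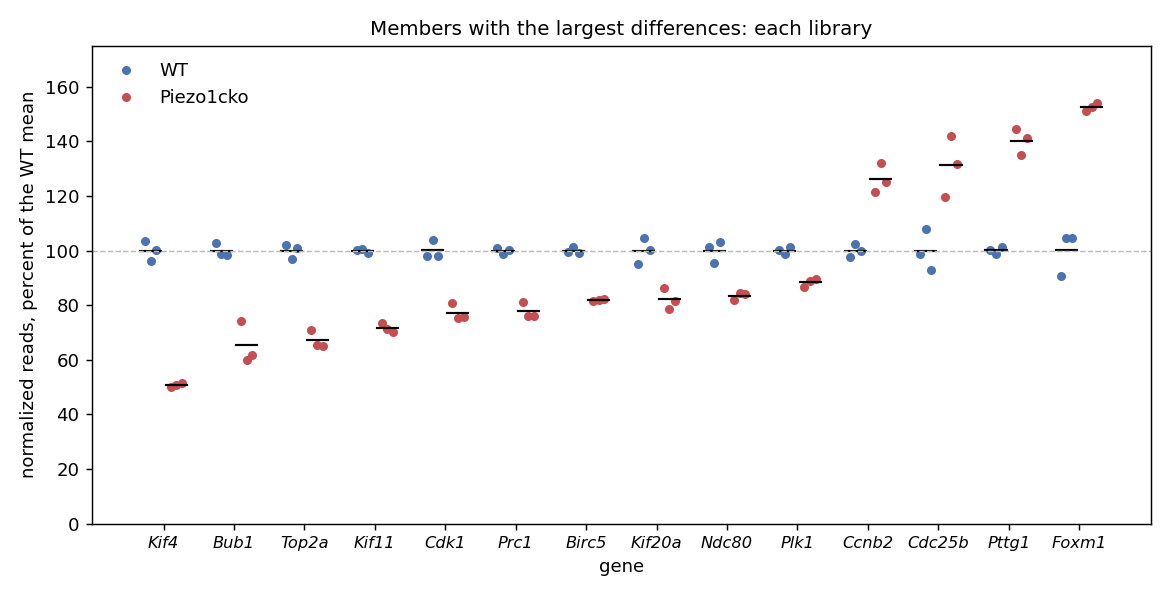
Normalized reads of 14 members in each library, as percent of the gene's WT mean. Points are the 3 libraries of a group and black bars their means. The Piezo1cko libraries of the 10 genes at left, from Kif4 at 50.8% to Plk1 at 88.4%, lie below all WT libraries, and those of Ccnb2, Cdc25b, Pttg1 and Foxm1 lie above.

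Among chromosome structure genes, Top2a fell while the condensin subunits Smc2 and Smc4 rose slightly. Top2a (chromosome 11, 98992943 to 99024189), the topoisomerase that untangles sister chromatids and a textbook marker of G2 and M phase, had 4780, 4529 and 4724 normalized reads in WT and 3309, 3068 and 3036 in Piezo1cko libraries. Its level was 67.1% of WT, with a log2 fold change of -0.42 (SE 0.03, adjusted p = 3.65e-10). Smc2 and Smc4, the ATPase pair at the core of condensin, had log2 fold changes of 0.07 (adjusted p = 0.0356) and 0.08 (adjusted p = 0.00987), and both calls were lost under some alternatives. Outside the set, the condensin subunits Ncapd2, Ncapg and Ncaph were lower, at 74.6%, 84.4% and 88.3% of WT. Ncapd3 and Ncapg2, given below, were lower too, and Ncaph2 did not pass the test. Smc4 has more recovered reads than any other of the 42, 11881 ± 506 in WT and 12841 ± 651 in Piezo1cko libraries. The summed reads of the 3 genes overlapped between groups, at 97.7% of WT.

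The mitotic cyclins, CDK1 and the CDC25 phosphatases divided: 4 of 6 were lower (background 31.4%) and 2 were higher (33.3%, near the background of 31.6%), and their summed reads were level, 10693 ± 109 in WT and 10695 ± 256 in Piezo1cko libraries. Cdk1 (chromosome 10, 69335146 to 69352938), the kinase of mitotic entry, had 1318, 1392 and 1318 normalized reads in WT and 1082, 1010 and 1015 in Piezo1cko libraries. It fell to 77.2% of WT (log2 fold change -0.25, SE 0.03, adjusted p = 2.14e-06). Its cyclin partners went in different directions. Ccnb2 (chromosome 9, 70407692 to 70421547) rose from 3655, 3837 and 3728 normalized reads to 4544, 4937 and 4681, 126% of WT (log2 fold change 0.24, SE 0.03, adjusted p = 3.24e-07). Ccnb1, the other B-type cyclin, was lower in every Piezo1cko library, at 3384, 3346 and 3064 against 3886, 3783 and 3736 (log2 fold change -0.16, adjusted p = 0.000110). Processed pseudogenes nearly identical to Ccnb1 had mean reads of at most 10.5, against 3553.3 for Ccnb1. Ccna2, cyclin A2, fell by 0.12 on the log2 scale (adjusted p = 0.00400) and shares 12.5% of its exon bases with Exosc9, which was at 88.8% of WT.

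Cdc25b and Cdc25c, the phosphatases of the set that remove the inhibitory marks from CDK1, also parted. Cdc25b (chromosome 2, 131186949 to 131198497) had 220, 241 and 207 normalized reads in WT and 267, 317 and 294 in Piezo1cko libraries, 131% of WT (log2 fold change 0.19, SE 0.04, adjusted p = 0.000623, and 0.40 in recovered reads). Cdc25c fell by 0.14 on the log2 scale (adjusted p = 0.00270), with 12.7% of its exon bases shared with an opposite-strand gene, Gm3550. Gm3550 had mean reads of 813.0, against 476.0 for Cdc25c, and its part in the fall was not tested. Cdc25a, outside the set, was at 142% of WT (log2 fold change 0.23, adjusted p = 0.000143). Both genes grouped here as mitotic kinases, Plk1 and Aurka, were lower (2 of 2, background 31.4%). Other kinases of the set are counted under other roles, and of those Aurkb and Ttk did not pass the test. Plk1 (chromosome 7, 122159439 to 122169873), the Polo kinase that acts at centrosomes and kinetochores, had 3694, 3637 and 3735 normalized reads in WT and 3199, 3274 and 3307 in Piezo1cko libraries. That is 88.4% of WT, with a log2 fold change of -0.13 (SE 0.02, adjusted p = 0.000196). Aurka, the Aurora kinase of the spindle poles, was at 88.6% of WT (log2 fold change -0.12, adjusted p = 0.00117).

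Of the 5 spindle checkpoint genes, 2 were lower (near the background of 31.4%) and none was higher (background 31.6%). Bub1 (chromosome 2, 127801122 to 127831865), the checkpoint kinase at kinetochores, had 904, 867 and 865 normalized reads in WT and 653, 528 and 544 in Piezo1cko libraries. Replicate 1 was the highest of the Piezo1cko libraries, but still below all WT libraries, and the mean was 65.5% of WT (log2 fold change -0.39, SE 0.04, adjusted p = 3.00e-07). Bub1b, which encodes BUBR1, an inhibitor of the APC/C, fell by 0.10 on the log2 scale (adjusted p = 0.00683). The other 3 did not pass the test: Mad2l1 (log2 fold change 0.07, adjusted p = 0.0562), Bub3 (0.02, adjusted p = 0.305) and Ttk (0.02, adjusted p = 0.716). Bub3 holds most of the reads of the group, whose sum was 99.4% of WT.

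Among the APC/C and anaphase genes, the clearest difference was in securin. Pttg1 (chromosome 11, 43420250 to 43426251), which encodes securin, the inhibitor of separase, rose from 758, 749 and 766 normalized reads to 1095, 1023 and 1069. All Piezo1cko libraries were well above the narrow WT range, at 140% of WT (log2 fold change 0.32, SE 0.03, adjusted p = 1.04e-07). Espl1, which encodes separase itself, fell from 273, 293 and 290 to 251, 236 and 220 normalized reads (log2 fold change -0.14, adjusted p = 0.00475). The APC/C coactivators Cdc20 and Fzr1 and the ubiquitin-conjugating enzyme Ube2c did not pass the test, with log2 fold changes of -0.04, -0.05 and -0.03 (adjusted p = 0.223, 0.101 and 0.474). Ube2c shares 22.8% of its exon bases with Tnnc2, which had almost no reads.

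In the chromosomal passenger complex, which corrects wrong attachments and later guides cytokinesis, 2 of 4 genes were lower (background 31.4%) and none was higher (background 31.6%). Birc5 (chromosome 11, 117849251 to 117855743), which encodes survivin, had 1839, 1868 and 1831 normalized reads in WT and 1503, 1510 and 1517 in Piezo1cko libraries. Libraries within each group were nearly equal, and the Piezo1cko mean was 81.8% of WT (log2 fold change -0.20, SE 0.03, adjusted p = 5.68e-06). Cdca8, borealin, fell by 0.06 on the log2 scale (adjusted p = 0.0361, a call lost under several of the alternatives), while Aurkb, the kinase of the complex (-0.06, adjusted p = 0.0603), and the scaffold Incenp (-0.03, adjusted p = 0.328) did not pass.

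Of the 7 kinetochore and centromere genes, 4 were lower (57.1%, background 31.4%) and 2 higher (28.6%, near the background of 31.6%). Of the 4 NDC80 complex genes, which encode the main microtubule anchor of the kinetochore, 3 fell: Ndc80, Spc24 and Spc25. Ndc80 (chromosome 17, 71496100 to 71526857) had 1104, 1038 and 1125 normalized reads in WT and 892, 921 and 915 in Piezo1cko libraries, 83.5% of WT (log2 fold change -0.17, SE 0.03, adjusted p = 0.000173). A pseudogene with 95.05% identity over 303 bases, 2700099C18Rik, carried reads too and was at 86.6% of WT. Spc24 fell by 0.17 on the log2 scale (adjusted p = 0.000109) and Spc25 by 0.16 (adjusted p = 0.000170). Nuf2, the partner that pairs with NDC80 in the same subcomplex, went the other way without passing the test, at 945, 918 and 897 against 1013, 970 and 990 normalized reads (log2 fold change 0.07, adjusted p = 0.0602). Cenpe, a kinetochore motor, was lower (-0.13, adjusted p = 0.00887), and Cenpf, a large protein of the outer kinetochore, and Cenpa, the histone variant of centromeres, were higher (0.13, adjusted p = 0.00152, and 0.07, adjusted p = 0.0429).

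The last 2 genes are the proliferation marker Mki67 and the transcription factor Foxm1, which drives many late cell cycle genes. Foxm1 (chromosome 6, 128362967 to 128376146) had 53.4, 61.6 and 61.6 normalized reads in WT and 88.8, 89.7 and 90.6 in Piezo1cko libraries. It had the fewest reads of the set, and its level was 152% of WT, with log2 fold changes of 0.16 (SE 0.04, adjusted p = 0.000824) for the deposited values and 0.61 for recovered reads (SE 0.14, adjusted p = 0.00180). Mki67, which encodes the Ki-67 antigen, did not pass, at 802, 774 and 793 against 791, 728 and 698 (log2 fold change -0.06, adjusted p = 0.136).

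Summed over the 42 genes, normalized reads were 88615, 87295 and 87946 in WT libraries and 84480, 83245 and 82411 in Piezo1cko libraries, 94.8% of WT. The groups did not overlap, and the sum is given without a test. By role, the sums were 80.8% of WT for kinesins and spindle, 88.5% for mitotic kinases, 92.4% for the chromosomal passenger complex and 94.5% for kinetochore and centromere, with no overlap in any of these 4. They overlapped for the other 5 roles, at 97.7% to 100% of WT.

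**Figure D4:**
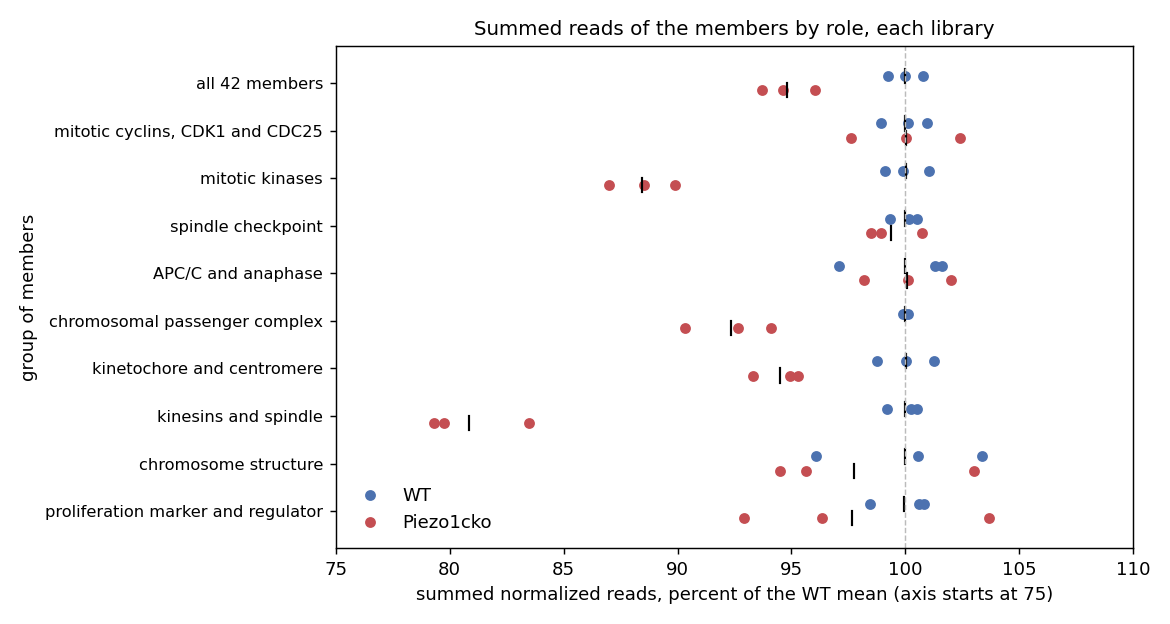
Summed normalized reads of all 42 members and of each role in each library, as percent of the WT mean, on an axis that starts at 75%. Points are libraries and black bars group means. Kinesins and spindle stand lowest in Piezo1cko LSCs, at 80.8%, and the cyclin, checkpoint and APC/C groups overlap with WT.

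Some partners of 1 protein complex or step had log2 fold changes of opposite sign. The following 3 pairs were chosen after their values were seen and are given without a test, as ratios of reads per kb of exon. The Ccnb2 to Ccnb1 ratio was 2.59, 2.79 and 2.75 in WT and 3.70, 4.06 and 4.21 in Piezo1cko libraries. Securin to separase (Pttg1 to Espl1) went from 11.6 ± 0.487 (SD, n = 3) to 19.8 ± 1.30 (SD, n = 3). The Ndc80 to Nuf2 ratio was 1.16 ± 0.0618 in WT and 0.897 ± 0.0342 in Piezo1cko libraries. No ratio overlapped between the groups, which was fixed by the choice of pairs. In each pair the genes had moved in opposite directions, each without overlap between the groups. On the same per-kb scale, WT levels ran from 10.2 for Foxm1 and 32.6 for Espl1 to 2280 for Smc4 and 2443 for Ccnb2.

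**Figure D5:**
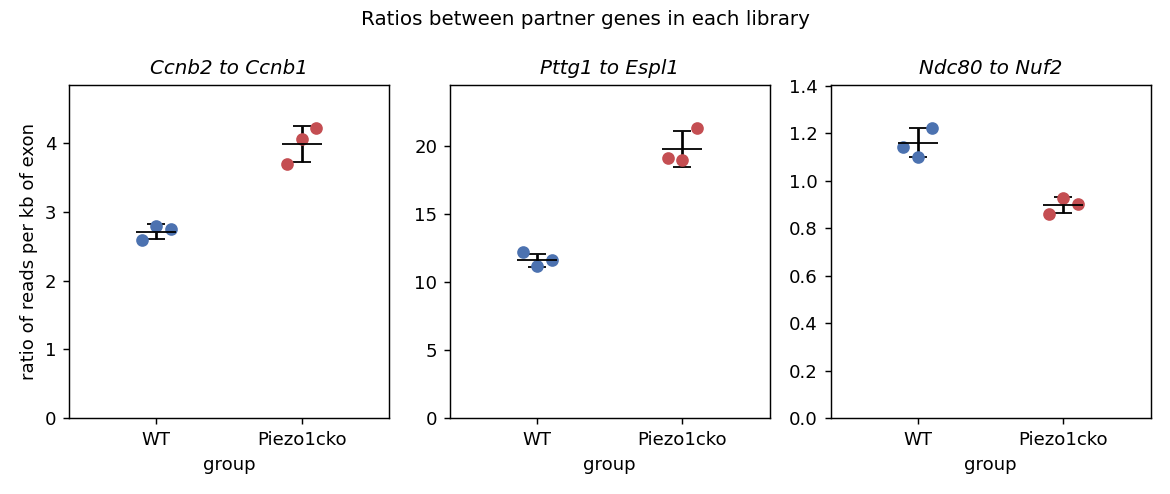
Ratio of reads per kb of exon between partner genes in each library, with mean and SD (n = 3 per group). The Ccnb2 to Ccnb1 and Pttg1 to Espl1 ratios were higher in Piezo1cko LSCs, 3.99 against 2.71 and 19.8 against 11.6, and the Ndc80 to Nuf2 ratio was lower, 0.897 against 1.16.

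Other genes of the same machinery, from lists that hold none of the 42, were looked at in the same fit. Of 53 other kinetochore, cohesin and condensin genes, 29 were lower (54.7%, background 31.4%) and 9 higher (17.0%, background 31.6%), with a median log2 fold change of -0.11. In the deposited values, the largest differences were in 2 condensin II subunits and the cohesin protector sororin. In recovered reads the order differed, with Itgb3bp, a centromere protein chosen after its values were seen, at 43.2% of WT (log2 fold change -1.19). Ncapg2 went from 1058 ± 26.6 to 634 ± 6.81 normalized reads (log2 fold change -0.47, adjusted p = 3.49e-10), Ncapd3 was at 63.8% of WT (-0.43, adjusted p = 3.64e-09) and Cdca5, which encodes sororin, at 71.3% (-0.34, adjusted p = 5.66e-09). Of 70 other mitotic kinase, spindle, cytokinesis and APC/C genes, 22 were lower (31.4%, as in the background) and 13 higher (18.6%, background 31.6%), with a median of -0.02. There the mitotic kinase Nek6 was at 42.5% of WT (log2 fold change -0.71, adjusted p = 6.23e-12) and Ube2s, the ubiquitin-chain-extending partner of the APC/C, at 53.9% (-0.48, adjusted p = 1.49e-08), whereas Pimreg rose to 160% (0.42, adjusted p = 2.28e-08).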

How the data were processed

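Per the labels, the submitters' processing notes name fastp 0.20.1 for trimming, HISAT2 2.2.1 for mapping to GRCm38, featureCounts 2.0.1 for counting and DESeq2 1.28.1 for normalization. The values the authors deposited are on a log2 scale, from -1.97 to 18.06 for 26402 genes, with 28965 genes at 0 in all libraries. The transform is not named in the sources. Each column matched 1 library, and the labels give no batch. Genes with a mean of at least 1 (16746) entered limma's linear model (limma 3.58.1 in R 4.3.3), with a variance trend in eBayes and no covariates.

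The log was undone by fitting size factors and shrinkage so that values became whole reads: 6 of 6 starting points reached the best fit, and 92.7% of values of genes with a mean of at least 1 read lay within 0.1 of a whole number, against 22.2% with the shrinkage set 10% off. On simulated reads of 18355 genes, 100% came back exactly. The simulation used the same form of transform that the recovery undoes, so it cannot show that the deposited values have that form. Recovered reads of 17352 genes with at least 10 reads in total were fitted with limma-voom. Coordinates and exon lengths are from GENCODE M21, near copies were sought at 95% identity over 200 bases, and promoter sequences are RefSeq's. Python (version 3.11.15) did the other steps.

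The 42 members, the other lists and the tests were chosen with earlier results of these data known. Values per library are given for the up to 12 called members with the largest absolute log2 fold change and the leader of each role, and for Ccnb1, Espl1, Nuf2 and Mki67, chosen after their values were seen. The 3 most changed called genes of each other list were named. The overlapping genes, Xist, Ddx3y, E2f5, Mybl2, Tfdp1, Rbl1 and Cdkn1a were added after their values were seen. So were Cdc25a, Foxo3, Lin37, the regulators that did not pass the test, and the condensin subunits Ncapd2, Ncapg, Ncaph and Ncaph2. Alternatives were other filters, scalings and variance models, a replicate block, recovered reads and leaving out each library.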

Additional observations from a re-analysis of the deposited data

How the results depend on the processing

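With each library left out in turn, 21 to 24 of the 42 members were called lower and 5 to 9 higher, 5 without WT replicate 2. The median log2 fold change of the 42 was -0.08 under median centring and under quantile normalization, -0.16 in recovered reads and -0.14 in recovered reads scaled to library totals, and -0.11 to -0.09 with a library left out. Higher calls among the 26 transcription regulators tested numbered 3, and 1 to 3 with a library left out, 1 each without Piezo1cko replicate 2, Piezo1cko replicate 3 and WT replicate 3. Median centring moved the split over all genes from 5258 lower and 5298 higher (49.8% of calls lower) to 4214 lower and 6450 higher (39.5%), and the members to 21 lower and 10 higher. Of the 32 called members, 25 kept call and direction in all 15 alternatives, and 7 lost the call in at least 1. Ttk, not called, changed sign without Piezo1cko replicate 3 (-0.03, in a leave-one-out range up to 0.08), and so did Ube2c without Piezo1cko replicate 1 (0.0025, in a range down to -0.05). The labels number the replicates 1 to 3 in both groups without saying what a number marks. Deviations of libraries with the same number correlated at 0.195, 0.161 and 0.0696, each WT library best with its own number, which is a hint and not a pairing. A replicate block gave 26 lower and 10 higher members. No alternative brought a member past the thresholds for a differentially expressed gene. With 3 libraries a group, exact permutation allows no two-sided p under 0.1, reads have no molecular identifiers, and Foxm1, at 53.4 to 90.6 normalized reads, is the least precise member.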

Other observations

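Of 26 tested regulators that turn cell cycle genes on or off, 17 were lower (65.4%) and 3 higher (11.5%), against 31.4% and 31.6% of all genes tested, with a median log2 fold change of -0.20 and of -0.32 in recovered reads. E2f2, an activator E2F of S phase entry, had 966, 1056 and 1060 normalized reads in WT and 229, 219 and 211 in Piezo1cko libraries, 21.4% of WT (log2 fold change -1.33, SE 0.04, adjusted p = 6.16e-16, limma). Lin54, the DNA-binding subunit of the DREAM and MuvB complexes, which reads the CHR, was at 49.7% of WT (log2 fold change -0.64, adjusted p = 4.84e-11), and E2f4, a repressor E2F of DREAM, at 68.3% (-0.37, adjusted p = 6.27e-09). E2f5, another repressor E2F, went from 43.7 ± 3.83 to 4.06 ± 1.09 normalized reads (log2 fold change -0.28, adjusted p = 8.02e-08). Mybl2, which joins MuvB to activate late cell cycle genes, was at 79.8% of WT (-0.21, adjusted p = 7.60e-05), Tfdp1, the partner of the E2Fs, at 80.0%, and Rbl1, the pocket protein p107, at 74.5%. The 3 called higher were Foxo3, at 145% of WT (0.37, adjusted p = 7.87e-09), Lin37, at 111% (0.09, adjusted p = 0.0224), and Cdkn1a, which encodes the CDK inhibitor p21, at 106% (0.06, adjusted p = 0.0273). The 6 that did not pass the test were E2f1, E2f3, Lin9, Rbbp4, Rbl2 and Nfyc.

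Among 57 DNA replication genes, 28 were lower (49.1%, background 31.4%) and 12 higher (21.1%, background 31.6%), with a median log2 fold change of -0.07. Rrm2, the small subunit of ribonucleotide reductase, went from 11717 ± 402 to 7991 ± 300 normalized reads (log2 fold change -0.41, SE 0.02, adjusted p = 5.02e-11). Pola1, the catalytic subunit of DNA polymerase alpha, was at 64.2% of WT (-0.41, adjusted p = 1.55e-08), and Uhrf1, which recruits the maintenance DNA methyltransferase, at 71.3% (-0.35, adjusted p = 3.39e-09).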
